A study of Rattus norvegicus with 14 samples.

Results

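The expression of 9 genes for matricellular and bone matrix proteins was followed across 7 rat cell lines. The genes were Spp1, Sparc, Thbs1, Thbs2, Postn, Tnc, Fn1, Ibsp and Alpl, chosen by name. They were measured by 12 probes among the 41012 distinct non-control probes of the array, which carry 35508 names. Fn1, Thbs2 and Tnc each had a pair of probes. A further probe, for the sphingosine phosphatase gene Sgpp1, lists Spp1 as an alias in its description and was left out. It was well above background on all 14 arrays and differed by -0.28 on the log2 scale between the stem cell lines and the mesenchymal line (limma, adjusted p = 0.409).

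Matricellular proteins are secreted into the extracellular matrix, where they act on cell adhesion, migration and growth factor signalling more than as structural scaffold. Osteopontin (Spp1), bone sialoprotein (Ibsp) and osteonectin (Sparc) are abundant in bone matrix, and tissue-nonspecific alkaline phosphatase (Alpl) supplies phosphate for mineralization. Osteonectin is also a known product of the parietal endoderm, an extraembryonic derivative of the hypoblast that lays down a thick basement membrane.

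Lines of 3 kinds were compared in RNA labelled for one-colour arrays, with an array A and an array B for every line. The blastocyst lines were Fi1 (male, Fischer), Fi2 (female, Fischer) and Wk8 (female, Wistar-Kyoto). The bone marrow lines were CL19 (female, Fischer), 3C3 (male, Fischer) and RMAPC-1 (male, Fischer), and the study calls both kinds hypoblast stem cells. The mesenchymal control was the single line RClone-2 (male, Fischer). No treatment, time or animal age is given for any line. The control's spread between lines was not measured and was taken from the other lines. The labels do not say whether arrays A and B came from separate cultures, so the line was the replicate.

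The labelled types were checked against marker lists, summing each list's signals relative to the 75th percentile of the array on a linear scale. On the RClone-2 arrays 7 of 8 mesenchymal markers were well above background and their sum was 346 to 454, against 0.63 to 1.34 on the stem cell arrays. On the stem cell arrays 3 to 4 of these 8 markers were well above background. The primitive endoderm sum was 124 to 208 on the stem cell arrays and 0.95 to 0.96 on the RClone-2 arrays. All 6 of these markers were well above background on the stem cell arrays, and 5 of the 6 on the RClone-2 arrays. The kinds thus differ in these sums more than in the number of markers detected. Of 4 osteoblast markers, Sp7 and Dmp1 were in no line clear of background on arrays A and B alike. The list's sum was 0.34 to 0.36 in RClone-2 and 0.12 to 0.24 in the stem cell lines. On each array 61.7% to 68.0% of probes were well above background. Arrays A and B of RMAPC-1 differed by over 1 on the log2 scale in 16.6% of tested probes, against 3.06% to 6.33% in the other lines.

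The probe sequences give the 60 bases at which each value was read. Capitals mark the whole codons of a probe that has a single reading frame free of stop codons. Lower case throughout means that more than 1 frame is free of stops. Those below belong to the 7 genes on which the comparisons turn.
Spp1: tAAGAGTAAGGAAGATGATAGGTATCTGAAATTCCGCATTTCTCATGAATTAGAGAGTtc
Sparc: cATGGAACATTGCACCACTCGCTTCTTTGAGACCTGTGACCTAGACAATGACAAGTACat
Thbs1: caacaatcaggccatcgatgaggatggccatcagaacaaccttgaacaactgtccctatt
Thbs2: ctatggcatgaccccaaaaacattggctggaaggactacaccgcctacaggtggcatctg
Postn: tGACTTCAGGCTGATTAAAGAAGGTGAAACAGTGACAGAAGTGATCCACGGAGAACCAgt
Tnc, brighter probe: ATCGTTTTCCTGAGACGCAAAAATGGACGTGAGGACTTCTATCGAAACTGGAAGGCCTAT
Tnc, dimmer probe: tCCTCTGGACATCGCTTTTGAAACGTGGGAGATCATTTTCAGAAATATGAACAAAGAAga
Fn1, probe spotted 10 times: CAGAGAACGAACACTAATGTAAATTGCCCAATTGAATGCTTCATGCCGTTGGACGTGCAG

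In the files, whose build is rn4, the Spp1 probe lies on the minus strand at chr14:6422382-6422441 and the Sparc probe at chr10:40811473-40811532. The Thbs2 probe shown lies at chr1:53589151-53589210 on the minus strand, and the second Thbs2 probe at chr1:53584673-53584732. The Fn1 probe shown spans 605 bases of genome, chr9:70702896-70703500, so its 60 bases are interrupted there. The second Fn1 probe, at chr9:70702316-70702375, is unbroken. The Postn probe also spans more than its length, chr2:143560792-143561828 on the plus strand. The Alpl probe lies at chr5:156501741-156501800 and the Ibsp probe at chr14:6549186-6549245. The files give no position for the Thbs1 probe and both Tnc probes. No annotation of this build was used here, so exons and untranslated regions are not stated.

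All levels are log2 signals minus the 75th percentile of the same array. The question of the study is how bone marrow and blastocyst lines compare, with the mesenchymal line as control. Across these genes the mesenchymal line stood apart. Spp1, Thbs2, Tnc and Postn, 4 of the 9 genes, were well above background in RClone-2 and on none of the 12 stem cell arrays. Thbs1 and Fn1 were lower in the stem cell lines, and Sparc was higher. Alpl did not pass this comparison, and Ibsp was too dim to be tested.

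**Figure D1:**
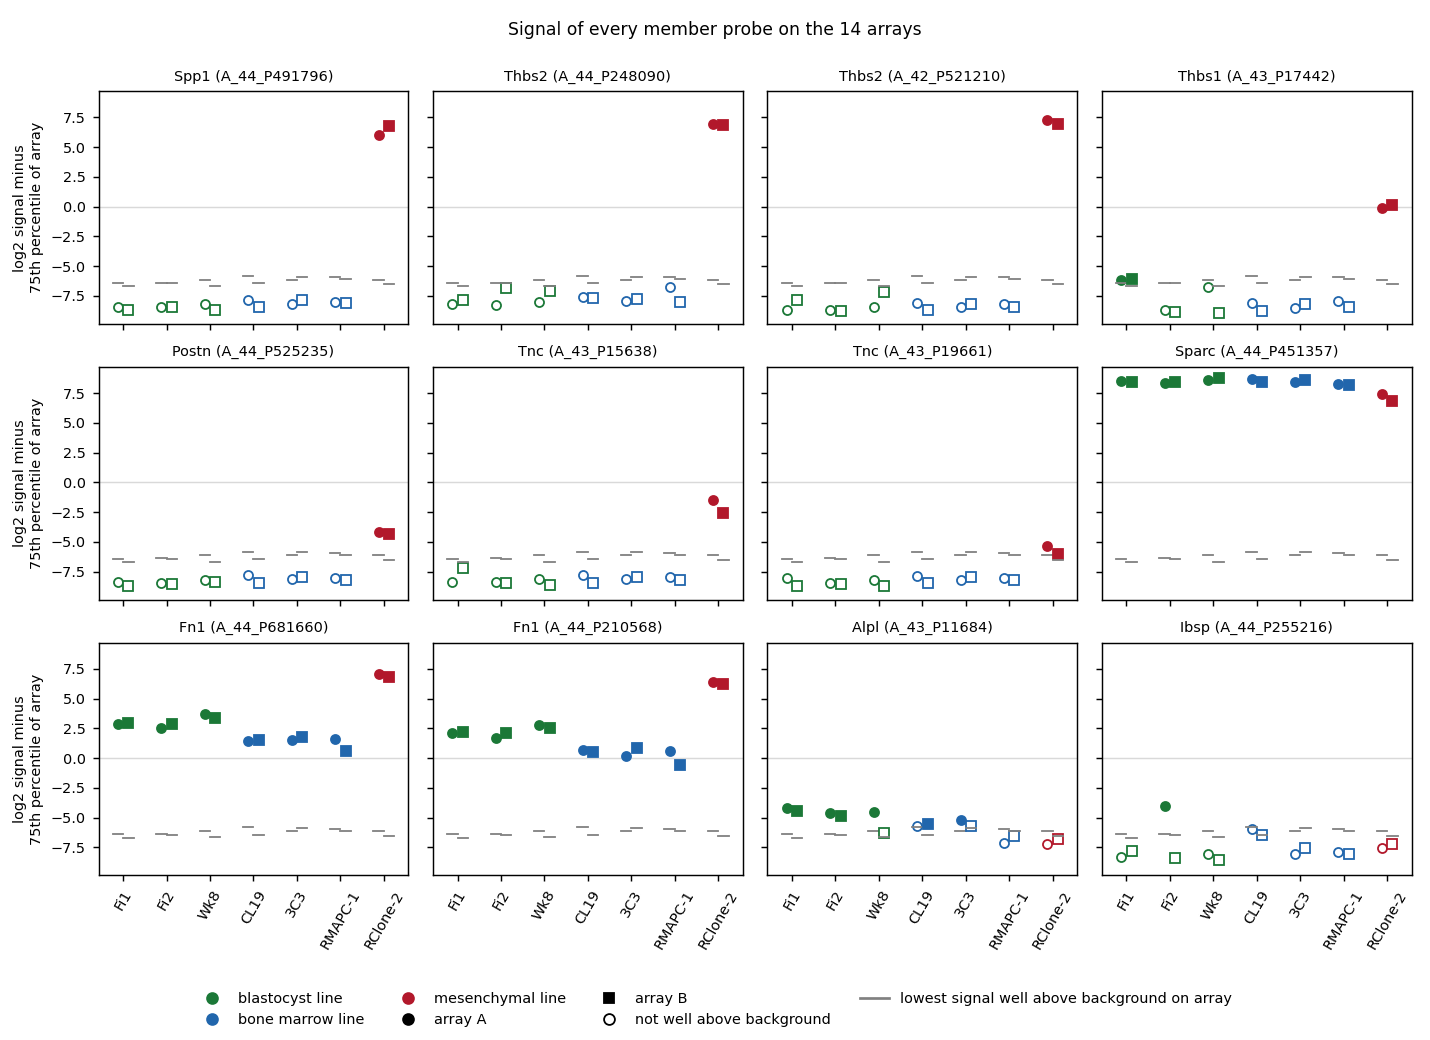
Signal of each of the 12 probes on the 14 arrays, as log2 signal minus the 75th percentile of the array, with circles for array A and squares for array B. Open symbols were not well above background, and short grey lines mark the lowest signal called above background on that array. Spp1 and Thbs2 lie above 6 in RClone-2 and at the bottom of the scale in every stem cell line, whereas Sparc lies above 8 in all 6 of them.

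A probe was tested if arrays A and B of some line both called it well above background, as was so for 11 of the 12 probes and 8 of the 9 genes. In the comparison of the 6 stem cell lines with RClone-2, 6 of the 8 genes were lower and 1 was higher at an adjusted p under 0.05 (limma on line means, Benjamini-Hochberg over 29309 probes). Of all 24872 names tested, 22.6% were lower and 24.9% were higher. The median difference of the 8 genes was -5.40, or -4.46 with the 5 genes that have only a bound set at it, against 0.03 over all names. These genes were chosen with earlier results of these arrays known, so the counts describe them and are not independent evidence.

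Where every array of a group was not well above background, a fold is given as a bound. It sets the brighter group's mean against the lowest signal called above background on the dim group's arrays, or the dim probe's own signal where that was higher. Spp1, Thbs2, Postn and Tnc passed the filter through RClone-2 alone. Their SE and adjusted p against it rest on stem cell readings at background. These values do not measure how expression varies between lines. RNA was taken from whole cultures, so fewer expressing cells and less RNA per cell cannot be told apart.

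Osteopontin, encoded by Spp1, is a secreted phosphoprotein that binds integrins and CD44. The level of Spp1 in RClone-2 was 6.05 on array A and 6.80 on array B. On the 12 stem cell arrays it was -8.68 at the lowest, -8.28 at the median and -7.80 at the highest, and none was well above background. RClone-2 was therefore at least 6495-fold higher than the stem cell lines, with no overlap of lines. The fitted difference, stem cell minus mesenchymal, was -14.69 ± 0.14 (SE, n = 6 and 1 lines; limma adjusted p = 7.0e-07). The bound was at least 7469-fold against the blastocyst lines and at least 5648-fold against the bone marrow lines. These bounds are those of the main processing. Across 23 alternatives the fitted difference of all stem cell lines was -15.19 to -9.69. Each array carried this probe 10 times. The SD over those spots was 0.055 and 0.060 on the RClone-2 arrays.

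Markers of haematopoietic cells and macrophages, which can also make osteopontin, were read beside it. Their summed signal was 10.9 to 17.1 on the RClone-2 arrays and 0.60 to 1.16 on the stem cell arrays. Of the 6 markers, 4 were well above background on the RClone-2 arrays and 3 to 5 on the stem cell arrays. Among the 4 tested, 2 were lower and 1 was higher in the stem cell lines, against 22.6% and 24.9% of all names. The lipopolysaccharide co-receptor gene Cd14 carried the RClone-2 sum, with a mean level of 3.72 in RClone-2 and -1.59 in the stem cell lines. Ptprc and Itgam, leukocyte markers of the list, were in no line clear of background on arrays A and B alike. The part of such cells in the Spp1 level was not tested.

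Bone sialoprotein, encoded by Ibsp, is a bone matrix protein thought to seed hydroxyapatite crystals. Its probe was well above background only on array A of Fi2, at -3.98, whereas array B of the same line read -8.42. The CL19 arrays read -5.98 and -6.42, and RClone-2 read -7.55 and -7.19, none of them called above background. Ibsp therefore had no line with arrays A and B above background, and was not tested.

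Spp1 and Ibsp belong to a chromosomal cluster of genes for phosphorylated matrix proteins of bone and tooth. The 12 probes within 300 kb of the Spp1 probe were read together, a window chosen after values were seen. Mepe, which encodes a matrix phosphoglycoprotein, lies between the probes of Spp1 and Ibsp, which are 126.8 kb apart. Its level was 2.53 and 1.52 in RClone-2, and its mean over the stem cell arrays was -6.52, with 2 of 12 well above background. Dmp1, at 215.1 kb, was below background on all arrays. Of the Dspp probes, the one at 252.3 kb read -5.98 and -5.87 in RClone-2 and -5.60 on average in the stem cell lines. The 4 probes on the other side of Spp1 were well above background on all arrays. Spp1 and Mepe were thus the members of this cluster with signal in RClone-2 far above the stem cell lines, while Ibsp and Dmp1 were below background on both RClone-2 arrays.

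**Figure D2:**
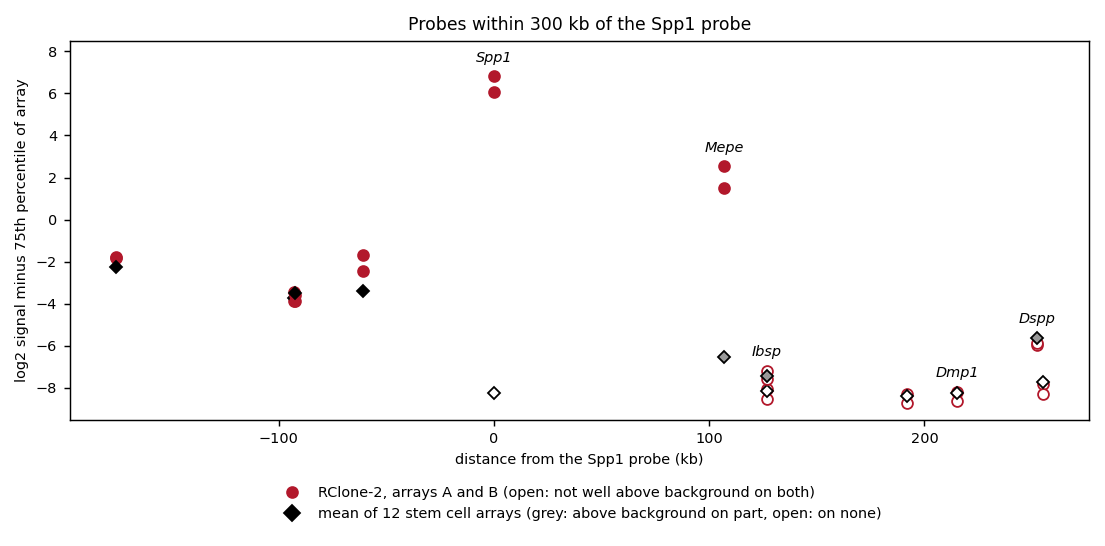
Level of the 12 probes within 300 kb of the Spp1 probe against their distance from it in kb, with RClone-2 arrays A and B in red and the mean of the 12 stem cell arrays as diamonds. Spp1 and Mepe separate the groups, while Ibsp, Dmp1 and Dspp lie low in both.

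Spp1 and Ibsp share the cluster, but Ibsp was below background on both RClone-2 arrays and was not tested. Sparc was higher in the stem cell lines, where Spp1 was lower, but it was well above background on all 14 arrays, RClone-2 included. The 250 bases before the start of Spp1, Ibsp and Sparc are from RefSeq on the GRCr8 build. They lie at chr14:5619805-5620054, chr14:5757243-5757492 and chr10:40038817-40039066, all on the minus strand. Capitals mark matches to 4 short motifs searched on both strands, which are spelled out after the sequences. The search window was 300 bases, the 250 shown and the 50 after the start, and every match in these genes lay in the 250.
Spp1: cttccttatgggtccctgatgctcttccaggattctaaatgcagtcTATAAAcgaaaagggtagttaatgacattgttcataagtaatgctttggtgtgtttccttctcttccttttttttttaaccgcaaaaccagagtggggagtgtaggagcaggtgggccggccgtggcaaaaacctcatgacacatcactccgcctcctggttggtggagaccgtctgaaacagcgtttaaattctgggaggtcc
Ibsp: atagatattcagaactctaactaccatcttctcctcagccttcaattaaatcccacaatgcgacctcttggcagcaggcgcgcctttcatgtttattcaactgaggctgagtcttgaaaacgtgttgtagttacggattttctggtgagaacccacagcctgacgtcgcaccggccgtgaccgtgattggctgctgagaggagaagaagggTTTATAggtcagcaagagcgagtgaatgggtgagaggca
Sparc: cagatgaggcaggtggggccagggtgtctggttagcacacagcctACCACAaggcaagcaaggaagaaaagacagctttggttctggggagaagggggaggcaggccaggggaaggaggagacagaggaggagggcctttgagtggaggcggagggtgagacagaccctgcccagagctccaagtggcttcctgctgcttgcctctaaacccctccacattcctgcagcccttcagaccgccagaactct

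Promoter entries were found for 7 of the 9 genes. The TATA box letters TATAAA were present in those of Spp1, Ibsp, Postn and Tnc, 4 of 7, and in 14.2% of all 33469 promoters of 300 bases. Its first base lay 204 bases upstream in Spp1 and 44 bases upstream in Postn, and 39 bases upstream in Ibsp on the opposite strand. The RUNX core, searched as TGTGGT, was present in 1 of 7, Sparc, and in 17.3% of all. The Sp1 box, searched as GGGCGG, was present in 3 of 7, Alpl, Thbs1 and Tnc, and in 33.1% of all. The AP-1 letters TGAGTCA were present in 0 of 7 and in 4.63% of all. These matches describe the letters of the window and were not set against the levels.

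Alkaline phosphatase, encoded by Alpl, hydrolyses pyrophosphate, an inhibitor of mineralization, and is also made by early embryonic cells. Its level was -4.20 and -4.41 in Fi1, -4.57 and -4.89 in Fi2, and -4.51 and -6.26 in Wk8. It was -5.71 and -5.56 in CL19, -5.23 and -5.71 in 3C3, -7.15 and -6.56 in RMAPC-1, and -7.18 and -6.78 in RClone-2. The signal was well above background on 5 of 6 blastocyst arrays, 2 of 6 bone marrow arrays and neither RClone-2 array. The Fi1 arrays lay above those of Fi2, the ranges of Fi2, Wk8, 3C3 and CL19 each overlapped the next, and RMAPC-1 lay below CL19 and overlapped RClone-2.

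Blastocyst lines were higher than RClone-2 in Alpl, by at least 2.87-fold (2.17 ± 0.64, SE, n = 3 and 1 lines; limma adjusted p = 0.0329). This call was lost in 11 of 23 alternatives. It was lost without Fi1 (adjusted p = 0.0701), Fi2 (0.0699), CL19 (0.0514) or array B of RMAPC-1 (0.0525). With normexp background correction the difference was 0.43 and did not pass. Normexp here added an offset of 50 to each signal, which shrinks differences of dim probes. The highest processed Alpl signal was 46.4, on array A of Fi1. RClone-2 shared no slide with the blastocyst lines, and with a term for the slide pair the difference was 1.64 (adjusted p = 0.274). In the other 5 settings that lost the call, adjusted p was 0.0782 to 0.198. The differences of the stem cell lines from RClone-2 (1.58 ± 0.60, adjusted p = 0.0717) and of blastocyst from bone marrow lines (1.18 ± 0.45, adjusted p = 0.0924) did not pass in limma. The first of these passed in 6 of 23 alternatives, among them without RMAPC-1 (limma adjusted p = 0.0215) and without Wk8 (0.0496). The second passed in 3 of 24, with a lowest limma adjusted p of 0.0394. The bone marrow lines differed from RClone-2 by 0.99 ± 0.64 (adjusted p = 0.247).

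Osteonectin, the product of Sparc, binds collagen and calcium and modulates adhesion. The level of Sparc on the stem cell arrays was 8.20 at the lowest, 8.42 at the median and 8.79 at the highest, and 7.41 and 6.85 in RClone-2. Every stem cell array was above both RClone-2 arrays, and none was saturated. The stem cell lines were 2.54-fold higher (1.34 ± 0.20, SE, n = 6 and 1 lines; limma adjusted p = 0.00289). Blastocyst lines (8.52 ± 0.17, SD, n = 3) and bone marrow lines (8.42 ± 0.18, SD, n = 3) differed by 0.10 ± 0.15 (SE; adjusted p = 0.647), and their ranges overlapped. That sign turned to -0.12 when arrays were scaled by the spiked-in transcripts. In the order of line means, Wk8 was highest and each line down to Fi1 overlapped the next. Fi2 lay below Fi1 but overlapped CL19 and 3C3, and RMAPC-1 and RClone-2 followed without overlap. The parietal endoderm markers were higher in the stem cell lines too, 7 of 7, against 24.9% of all names. On the RClone-2 arrays 6 of these 7 markers were well above background. Their summed signal was 433 to 1022 on the stem cell arrays and 83.5 to 95.8 on the RClone-2 arrays, and their part in the Sparc difference was not tested.

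Thrombospondins are large calcium-binding glycoproteins, of which the products of Thbs1 and Thbs2 inhibit angiogenesis and bind CD36 and CD47. The level of the Thbs2 probe shown above was 6.97 and 6.84 in RClone-2. On the stem cell arrays it was -8.24 at the lowest, -7.80 at the median and -6.73 at the highest, none well above background. The second probe read 7.31 and 6.91 in RClone-2 and -8.74 to -7.19 on the stem cell arrays. RClone-2 was at least 9063-fold higher by the first probe (limma adjusted p = 1.2e-06) and at least 10477-fold higher by the second (limma adjusted p = 1.3e-06). Both probes thus separated RClone-2 from every stem cell array. Across the alternatives the fitted difference was -15.06 to -9.92 by the first probe and -15.90 to -10.57 by the second.

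Thbs1 was at -0.13 and 0.18 in RClone-2. Fi1, at -6.12 and -6.09, was the stem cell line in which Thbs1 was well above background on both arrays. Array A of Wk8 read -6.77 and its array B -8.96, and the other stem cell arrays lay between -8.81 and -7.91. Fi1 lay above every other stem cell array and below RClone-2. The stem cell lines were lower (-7.97 ± 0.85, SE, n = 6 and 1 lines; limma adjusted p = 0.000719), a value that rests on 2 of 12 stem cell arrays above background. Across the alternatives the fitted difference of all stem cell lines was -8.47 to -3.59. Against the bone marrow lines, with 0 of 6 arrays above background, RClone-2 was at least 67.0-fold higher. Blastocyst and bone marrow lines differed by 0.74 ± 0.65 (SE; adjusted p = 0.407), with overlapping lines.

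Periostin (Postn) and tenascin C (Tnc) are matrix proteins of remodelling connective tissue, the periosteum included. Postn was at -4.14 and -4.35 in RClone-2 and at -8.68 to -7.80 on the stem cell arrays, with a median of -8.28. RClone-2 was at least 3.98-fold higher (limma adjusted p = 1.1e-05). The brighter Tnc probe read -1.45 and -2.59 in RClone-2 and -8.64 to -7.16 on the stem cell arrays, a difference of at least 18.7-fold (limma adjusted p = 1.8e-05). The dimmer one read -5.35 and -6.05 in RClone-2 and -8.70 to -7.83 on the stem cell arrays, at least 1.46-fold (limma adjusted p = 3.8e-05). All 3 probes were well above background on both RClone-2 arrays and on 0 of 12 stem cell arrays. The normexp offset of 50 exceeded the processed RClone-2 signals of Postn (33.9 and 30.8) and of the dimmer Tnc probe (14.7 and 9.5). A call of these probes lost with normexp therefore cannot show whether the groups differ. With normexp, the calls of Postn (adjusted p = 0.468) and of the dimmer Tnc probe (adjusted p = 0.826) were lost, whereas that of the brighter Tnc probe was kept.

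Fibronectin, encoded by Fn1, is the ligand of integrin α5β1 and the scaffold on which other matrix proteins assemble. Of the 9 genes, Fn1 and Sparc were well above background on all 14 arrays by every probe. The probe spotted 10 times read 6.41 and 6.25 in RClone-2. It read 2.76 and 2.49 in Wk8, 2.13 and 2.18 in Fi1, and 1.73 and 2.12 in Fi2. In the bone marrow lines it read 0.64 and 0.54 in CL19, 0.17 and 0.86 in 3C3, and 0.58 and -0.61 in RMAPC-1. RClone-2 was highest, the 6 blastocyst arrays followed, and all 6 bone marrow arrays were lower than these. The SD over the 10 spots was 0.069 to 0.126 on the 14 arrays.

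The second Fn1 probe gave the same order of groups. It read 7.07 and 6.80 in RClone-2, 2.52 to 3.71 on the blastocyst arrays and 0.58 to 1.82 on the bone marrow arrays. By the first probe the stem cell lines were 32.7-fold lower than RClone-2 (-5.03 ± 0.33, SE, n = 6 and 1 lines; limma adjusted p = 9.4e-05), and by the second 26.0-fold lower (-4.70 ± 0.35; limma adjusted p = 0.000165). Within each probe, RClone-2 lay above Wk8, and Wk8 above Fi1, without overlap of their arrays. Fi1 and Fi2 overlapped by the second probe only, and CL19, 3C3 and RMAPC-1 overlapped by both.

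Blastocyst lines were higher than bone marrow lines in Fn1. Their means were 2.24 ± 0.36 and 0.36 ± 0.33 (SD, n = 3 lines each) by the probe spotted 10 times, a 3.67-fold difference (1.88 ± 0.25, SE; limma adjusted p = 0.00769). By the second probe they were 3.06 ± 0.44 and 1.42 ± 0.28 (SD, n = 3 lines each), a 3.11-fold difference (1.64 ± 0.27, SE; limma adjusted p = 0.0112). The blastocyst lines shared slides 1 and 3 with CL19, while 3C3, RMAPC-1 and RClone-2 were on slides 2 and 4. Within slides 1 and 3, the blastocyst lines against CL19 differed by 1.65 ± 0.34 (limma adjusted p = 0.181) and 1.57 ± 0.41 (adjusted p = 0.198) by the first and second probe. A term for the slide pair gave the same sizes (limma adjusted p = 0.0999 and 0.120). Slides 2 and 4 held no blastocyst line, so that fit also sets the blastocyst lines against CL19 alone. Its sizes are therefore not a second check. Against CL19, size and direction were kept and the call was not. Within slides 2 and 4, the bone marrow lines were below RClone-2 by either probe (-6.08 and -5.55; limma adjusted p = 0.00513 and 0.00600). Array B of RMAPC-1 was low for Fn1. Across the alternatives, that array or that line left out included, the difference between the origins stayed between 1.39 and 2.36.

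In the comparison of blastocyst with bone marrow lines, Fn1 was the 1 gene of 8 that was higher, against 8.24% of all names. Of all names 24.6% were lower. Spp1 also passed as lower, but it was not well above background on any of these 12 arrays, so no difference in Spp1 is given. The other genes below background on all 12, Thbs2, Postn and Tnc, likewise gave no comparison. The median over the 8 genes was 0.02, with the background readings of Spp1, Thbs2, Postn and Tnc counted in. By the brightest probe, Fn1 differed by 1.64, Alpl by 1.18, Thbs1 by 0.74 and Sparc by 0.10, of which Fn1 alone passed. Over all names the median was -0.22. That shift depends on the scaling, being 0.28 over probes without scaling and -0.42 with spike-in scaling. Higher probes made up 2676 of 9492 calls with the 75th percentile and 7670 of 9059 without scaling.

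With a term for the slide pair, limma called 0 of 29309 probes between the origins, with 7577 at an unadjusted p under 0.05. Within slides 1 and 3 it also called 0, with 6177 at an unadjusted p under 0.05. Both of these fits set the blastocyst lines against CL19 alone. With slide as a block over single arrays and the line as a random block, 3607 of 29102 probes were called. The calls between the origins in the gene lists that follow come from the fit without slide, and none of them held with the slide pair term, though all kept their direction.

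**Figure D3:**
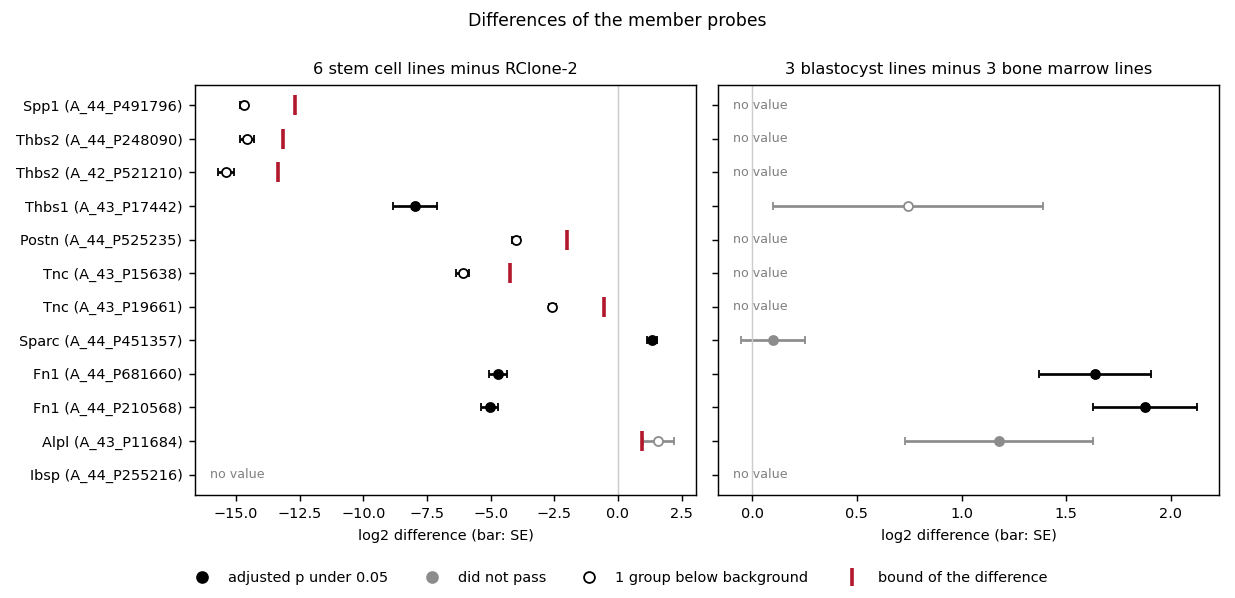
Log2 differences of the 12 probes with SE bars, for the 6 stem cell lines minus RClone-2 on the left and the 3 blastocyst minus the 3 bone marrow lines on the right. Open points have 1 group below background, and red ticks mark the bound of their difference. On the right both Fn1 probes lie between 1.5 and 2 and passed the test.

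Set against RClone-2 separately, the origins gave the same calls in 7 of the 8 genes, with Alpl the exception. Spp1, Thbs2, Postn and Tnc were at background in both origins and passed the filter through RClone-2 alone. Their shared call was thus fixed by RClone-2 and does not compare the origins. For Alpl the direct contrast of the origins did not pass (limma adjusted p = 0.0924). Blastocyst lines were higher in 2 genes, Sparc and Alpl, against 22.4% of all names, and lower in 6, against 26.4%. Bone marrow lines were higher in Sparc alone, against 26.9%, and lower in the same 6 genes, against 19.5%. Both comparisons use the same RClone-2 arrays. The Fn1 difference was -3.88 ± 0.38 for blastocyst and -5.52 ± 0.38 for bone marrow lines by the second probe (SE; limma adjusted p = 0.000523 and 0.000120). Sparc was higher by 1.39 ± 0.22 and 1.30 ± 0.22 (SE; limma adjusted p = 0.00334 and 0.00446). With a term for the slide pair the Sparc call of the blastocyst lines was lost (1.19, limma adjusted p = 0.0546).

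Other matricellular and matrix-associated genes were read from a list of 35, of which 28 were tested. In the stem cell lines 16 were lower and 3 higher than in RClone-2, with a median of -3.06, or -1.88 with genes that have only a bound set at it. Over all names 22.6% were lower and 24.9% higher. Tgfbi, which encodes a periostin relative, had the largest difference of this list (-12.48 ± 1.16; limma adjusted p = 0.000402), with 7 of 12 stem cell arrays above background. The SPARC relatives Smoc2 (-10.99) and Fstl1 (-8.59) were lower in the stem cell lines, unlike Sparc itself. Smoc2 was above background on 6 of 12 stem cell arrays and Fstl1 on 7. The CCN family genes Ccn4 and Ccn3 were lower too, each above background on 1 of 12 stem cell arrays. Against the bone marrow lines, with 0 of 6 arrays above background, RClone-2 was at least 1080-fold higher in Ccn4 and at least 178-fold higher in Ccn3. Also lower were the microfibril gene Fbn1 (-9.51) and the proteoglycan gene Vcan (-7.10), above background on 12 and 8 of the stem cell arrays. With normexp the calls of these genes were kept at smaller sizes, such as -4.66 for Ccn3 and -4.17 for Vcan. Comp, a thrombospondin family gene known from cartilage, went the other way. It was well above background on all 12 stem cell arrays and neither RClone-2 array, and at least 96.0-fold higher in the stem cell lines (limma adjusted p = 2.0e-06).

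Between the origins, 3 genes of that list were higher in blastocyst lines and 2 lower, with a median of 0.43. Over all names 8.24% were higher and 24.6% lower. Smoc2 was well above background on 6 of 6 blastocyst arrays and 0 of 6 bone marrow arrays, at least 4.71-fold higher (limma adjusted p = 0.0190). Ccn2, which encodes connective tissue growth factor, was higher by 1.18 ± 0.30 and Efemp2, a fibulin gene, by 0.59 ± 0.13 (SE; limma adjusted p = 0.0328 and 0.0202). The calls were lost in 9 of 24 alternatives for Smoc2, 14 of 25 for Ccn2 and 12 of 25 for Efemp2. Smoc2 lost its call without CL19, 3C3 or RMAPC-1 (adjusted p = 0.0518 to 0.0647). Ccn2 lost it without Fi1, Wk8, CL19, RMAPC-1 or either RMAPC-1 array (0.0522 to 0.0920), and Efemp2 without Fi1, CL19, 3C3 or RMAPC-1 (0.0510 to 0.0673). The lower calls, Dcn and Ccn5, were below background on all 12 arrays.

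Of 27 genes for osteoblast identity and mineralization, 19 were tested. Compared with RClone-2, 12 were lower in the stem cell lines and 3 higher, with a median of -1.40. The shares over all names were 22.6% and 24.9%. The collagen type I genes Col1a2 (-11.67 ± 0.22) and Col1a1 (-3.97 ± 0.15) were lower. So were the pyrophosphate-generating enzyme gene Enpp1 (-5.20) and the phosphatase gene Phospho1 (-4.23), above background on 11 and 7 of 12 stem cell arrays. For Enpp1 the call did not hold once RMAPC-1 array A was omitted (adjusted p = 0.0749). Mepe, with 2 of 12 stem cell arrays above background, was lower by a fitted -8.54, and by -4.94 with normexp. The homeobox gene Dlx3 was above background on 1 of 12. RClone-2 was at least 7.48-fold higher in Dlx3 than the bone marrow lines, and the call against all stem cell lines was lost with normexp (-1.16, adjusted p = 0.0928). Among the higher genes were Pth1r, the receptor of parathyroid hormone (11.14 ± 0.19; limma adjusted p = 1.0e-06), and Bmp4 (at least 2.85-fold). The Bmp4 call was lost with normexp (adjusted p = 0.232) and with the slide pair term (adjusted p = 0.0790). Runx2, the master regulator of osteoblasts, did not pass (-0.50 ± 0.22; adjusted p = 0.115), and osteocalcin (Bglap) was lower (-1.40 ± 0.29; adjusted p = 0.00954). In blastocyst against bone marrow lines 3 were higher, Bmp4 (2.26), Pth1r (0.89) and Slc20a2 (0.70), and 3 lower, Msx2 (-1.31), Col1a1 (-0.91) and Mgp (-0.77), with a median of 0.04. The shares over all names were 8.24% higher and 24.6% lower. The Mgp call was lost in 20 of 24 alternatives, Bmp4 in 15 of 24, Slc20a2 in 12 of 25, Msx2 in 6, Pth1r in 5 and Col1a1 in 3 of 25. Leaving out any 1 of the 6 lines, or array A of RMAPC-1, lost Bmp4 (adjusted p = 0.0592 to 0.0904). Omission of any line other than 3C3, or of that array, lost Mgp (0.0673 to 0.130), and Slc20a2 without Fi1, CL19, 3C3 or RMAPC-1 (0.0517 to 0.0852).

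Receptors of the 9 proteins were read from a list of 21, of which 16 were tested. In the stem cell lines 8 were lower than in RClone-2 and 4 higher, with a median of -1.31. Over all names 22.6% were lower and 24.9% higher, so the higher count is near that share. The osteopontin receptor gene Cd44 was lower (-6.89 ± 0.77), as was the thrombospondin receptor gene Cd47 (-5.69 ± 1.68; SE, n = 6 and 1 lines; limma adjusted p = 0.000859 and 0.0343). The Cd44 call was kept in all 24 alternatives. That of Cd47 was lost in 7 of 23, among them without CL19, 3C3 or RMAPC-1 (adjusted p = 0.0552 to 0.0632) and with the slide pair term (0.0869). The integrin genes Itga3 (-6.22), Itga5 (-2.53), Itgb5 (-2.48) and Itga11 (-2.18) and the endocytic receptor gene Lrp1 (-3.09) were lower too. Itga11 was above background on 1 of 12 stem cell arrays and lost its call with normexp (-0.43, adjusted p = 0.609), and Itgb5 lost its call with the slide pair term (adjusted p = 0.0742). Itgb6, whose integrin binds fibronectin, was higher by 7.41 ± 0.45 (limma adjusted p = 7.1e-05). Between the origins 3 were higher in blastocyst lines and 1 lower, against 8.24% and 24.6% of all names. The fibronectin receptor genes Itga4 (2.97 ± 0.84) and Itgav (0.90 ± 0.14) and the gene for calreticulin, Calr (0.47 ± 0.12), were higher (SE; limma adjusted p = 0.0419, 0.0103 and 0.0295), with a median of 0.45. The tenascin receptor gene Ptprz1 was lower by at least 1.07-fold (limma adjusted p = 0.0245). The calls were lost in 13 of 24 alternatives for Itga4, 16 of 25 for Calr, 15 of 24 for Ptprz1 and 4 of 25 for Itgav. Itga4 and Calr lost theirs without any 1 of the 6 lines or array A of RMAPC-1 (adjusted p = 0.0519 to 0.110 and 0.0526 to 0.0916), and Ptprz1 without Fi1, Fi2, Wk8 or CL19 (0.0507 to 0.0666).

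**Figure D4:**
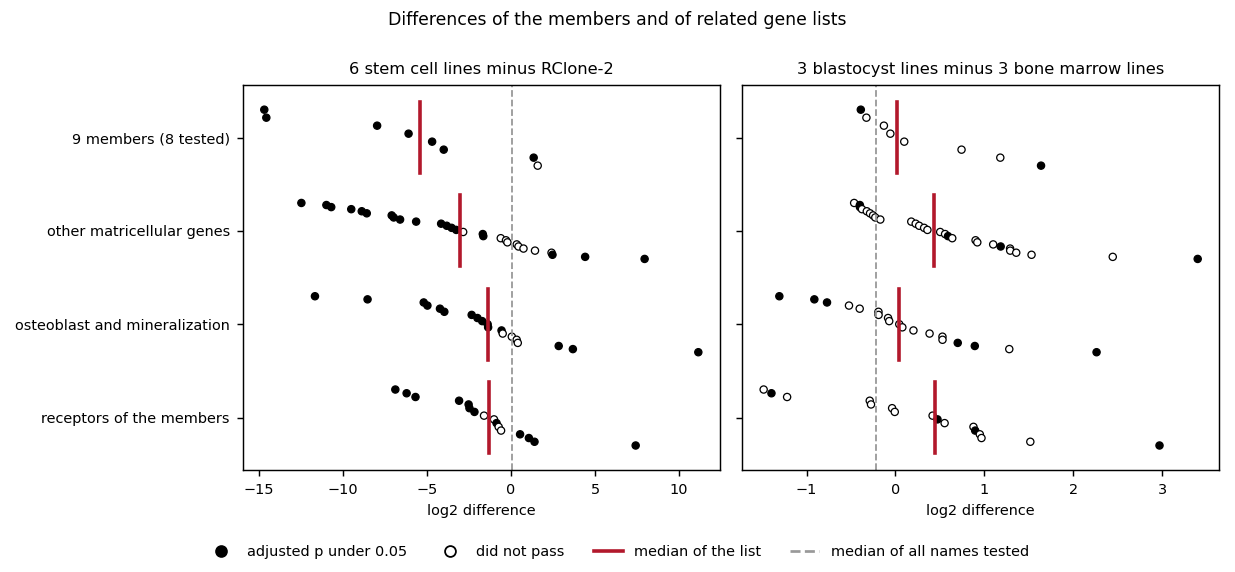
Log2 difference of each tested gene, by its brightest probe, for the members and for lists of related genes, with filled points past an adjusted p of 0.05, a red line at the list's median and a dashed line at the median of all names. On the left most filled points of each list lie below 0, and Comp, Itgb6 and Pth1r stand far above it. The filled member below 0 on the right is Spp1, which was below background there.

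The genes most like each member were those whose 7 line means, centred on each gene's own mean, had the smallest root-mean-square difference from it. For Spp1 these were Il1rl1, the interleukin-33 receptor gene, at 0.14 log2 units, the chemokine gene Ccl2 at 0.27 and the collagen gene Col5a2 at 0.39. The same genes were nearest to Thbs2, at 0.36, 0.35 and 0.50. Postn was matched by Rapgef5 at 0.07, decorin (Dcn) at 0.08 and the gelatinase gene Mmp2 at 0.09. For these 3 members and for Tnc, 6 of the 7 line means are below background, so likeness rests mainly on the height of RClone-2. Thbs1 was above background in Fi1 and RClone-2 alone. Tnc was nearest to Itga3 (0.13), and Thbs1 to Tlr4 (0.22). For Fn1 the nearest were Tent5b at 0.20, Mxra8 at 0.21 and the sorbitol dehydrogenase gene Sord at 0.24. For Sparc they were Trabd at 0.10, Klhl18 at 0.10 and Klhdc3 at 0.11, and for Alpl the cholesterol exporter gene Abca1 at 0.27, Pabpc6 at 0.33 and Cldn18 at 0.35. These distances are over 7 lines and carry no test.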

How the data were processed

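The one-colour arrays were read with Agilent Feature Extraction 10.7.3.1, per the file headers, and the processed signal is corrected for local background and spatial trend. In the deposited scanner files a spot's signal is an intensity, unscaled between arrays, beside flags (other values, 0 or 1). A deposited series table of log2 values equals, once sorted, the log2 processed signals (largest difference 0). Its rows could not be matched to probes and were not used.

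Levels are log2 processed signals minus the array's 75th percentile over 43379 non-control spots, which was 558.9 to 891.5. Outlier spots, 65 to 193 an array, were left out, and spots of one probe averaged. Names came from a RefSeq table of GRCr8 for 20576 of 41012 probes and from the files for the rest. Arrays A and B were averaged per line, and limma 3.58.1 (lmFit, eBayes; R 4.3.3) fitted 3 group means, with Benjamini-Hochberg adjustment. The brightest tested probe stood for a gene in counts. The script was tested on simulated data. Figures were drawn with matplotlib 3.10.9.

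The text names every member, up to 8 genes per other list and comparison (the largest differences that passed), and the 3 nearest genes of a member. Runx2, Bglap, Cd14 and the cluster around Spp1 were added after values were seen. One list gene is not reported here. The members and lists were chosen with earlier results of these data known. The number of lines limits the precision. Alternatives were other background correction (normexp, offset 50), scaling, filters, probe rule, blocks and covariates, omission of lines or arrays, and a 1.5-fold threshold test. Of the marker lists, 3 of 4 endothelial and 1 of 3 smooth muscle markers tested were higher in the stem cell lines and none lower. The shares over all names were 24.9% higher and 22.6% lower. Of adipocyte markers 1 was tested and did not pass.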

Additional observations from a re-analysis of the deposited data

Results flagged for a closer look

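Single arrays stood far from the other 5 of their group in 5 of the 24 groups examined. The nominal rate of 1 in 20 holds for independent arrays. Arrays A and B of a line need not be independent, so the count is not set against chance. In 2 of these 5 groups the array was well above background. Array B of RMAPC-1 read 0.58 for the second Fn1 probe, below the other bone marrow arrays, and array A of Fi2 read -3.98 for Ibsp, above the other blastocyst arrays. In the others the array was not well above background: array B of Wk8 at -6.26 for Alpl, array A of RMAPC-1 at -6.73 for the Thbs2 probe shown, and array B of Fi1 at -7.16 for the brighter Tnc probe.

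The difference of Fn1 from RClone-2 differed between the origins. This is the contrast of blastocyst with bone marrow lines given above, not a further result, and its call was lost with a slide pair term. Blastocyst minus bone marrow lines was 1.88 by the probe spotted 10 times and 1.64 by the second (limma adjusted p = 0.00769 and 0.0112).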

How the results depend on the processing

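Against RClone-2 the number of the 8 genes called, 7 for all stem cell lines, 8 for blastocyst and 7 for bone marrow lines, stayed within 1.5 times except when probes had to be above background on all 14 arrays, which leaves Fn1 and Sparc and gave 2, 2 and 2. Between the origins the count was 2. It was 1 with normexp, the percentile over detected probes, quantile normalization, median centring, that filter, sex as a covariate, the A or the B arrays left out, or slide as a block, and 3 without scaling or with spike-ins, both within 1.5 times. It was 0 with a slide pair term, within slides 1 and 3, or against a fold of 1.5 (limma; 1 at an unadjusted p under 0.05 in each). Leaving out lines or single RMAPC-1 arrays gave 1 to 2. The Spp1 call, below background, was the one lost, or not tested, in the settings that gave 1. The replicate block by array letter (8, 2, 8 and 7 genes in all 4 comparisons) pairs nothing the labels name.

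Of 902 values of member probes under 27 alternatives, 864 kept direction and side of the threshold. The Sparc difference between origins reversed to -0.12 with spike-ins, -0.036 with a slide pair term, within slides 1 and 3 or with slide as a block, and -0.0062 without RMAPC-1 (without other lines up to 0.17), and passed unscaled (0.58). Dcn turned to 0.026 with normexp and 0.079 unscaled, and Ccn5 to 0.079 unscaled, both below background. Of 930 values of list genes 199 lost their call. The causes were not tested. Signals at background limit Postn, Tnc, Alpl and Ibsp.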
